A study of Homo sapiens with 12 samples.

Results

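The genes examined were 9 of the 4918 genes in the deposited table: the endoplasmic reticulum (ER) stress sensors ATF6, ATF6B, EIF2AK3 (PERK) and ERN1 (IRE1), and the ER-associated degradation genes EDEM1, EDEM2, EDEM3, DERL1 and DERL2. They were chosen by symbol, and all 9 were found. mRNA was sequenced from A375 cells, a human melanoma line, in 12 samples with 3 in each of 4 groups. Control samples are labelled as given no treatment, and the other groups received SB-3CT, an inhibitor of the gelatinases, IFN-γ, an inflammatory cytokine, or SB-3CT together with IFN-γ (SB-3CT+IFN-γ), for 24 h. All groups share this 1 cell line, so nothing here shows how another line would respond. The labels do not say that replicates came from separate cultures, so the p-values measure the spread between these samples, which may be technical.

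The ER folds secreted and membrane proteins, and the unfolded protein response adjusts that capacity when misfolded chains build up. ATF6 and ATF6B are membrane-anchored transcription factors that are cut free in the Golgi, PERK is a kinase that slows translation through eIF2α, and IRE1 is a kinase and endonuclease that splices the XBP1 mRNA. Glycoproteins that fail to fold are marked by mannose trimming, in which the EDEM proteins take part, and are drawn back to the cytosol for the proteasome by membrane complexes that include the derlins. The sensors are controlled largely by cleavage, phosphorylation and splicing, which mRNA levels do not show.

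Levels are given in FPKM, fragment counts normalised to transcript length and library size. Changes are differences between group means of log2(FPKM + 1), so those of low genes are understated. A gene was called where limma's adjusted p was under 0.05, with the adjustment made over all 4918 genes. Counts at an unadjusted p under 0.05 are added to show near misses. The share of all genes at that threshold is not given, so these counts have no background to be read against. For a single value, the exact permutation test of 3 samples against 3 has 0.1 as its smallest p. In both comparisons of SB-3CT+IFN-γ with a single treatment the median gene was lower. The median change of genes at a mean of at least 1 FPKM was -0.20 against IFN-γ and -0.21 against SB-3CT. Over all genes it was -0.09 and -0.11. The FPKM summed over the table was not lower. It ran from 128299 to 129692 with SB-3CT+IFN-γ, from 122601 to 124670 with IFN-γ and from 123079 to 126550 with SB-3CT. After median ratio scaling the median change of genes at 1 FPKM or more was 0.02 and 0.01. That scaling brings samples to a common level by the median of their gene-wise ratios to an average sample. The changes of the members named below are therefore given mostly on both scales where SB-3CT+IFN-γ is involved. Relative sequencing depth ran from 87.1% to 150.2% of the control mean, and absolute depth is unknown. The melanoma markers CD63, AXL, CSPG4 and ERBB3 had medians of 666, 44.4, 38.6 and 44.6 FPKM, whereas DCT and BIRC7, which mark pigmented or differentiated melanoma, had medians of 0.11 and 0.114. The 9 markers of other cell types present in the table (of 14 listed) summed to between 0.55 and 0.968 FPKM in every sample.

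DERL1 and EDEM2 were the most abundant members, with means over the 12 samples of 24.6 and 24.3 FPKM. DERL2 (14.9) and EDEM1 (14.5) followed, then ATF6 (7.70), EDEM3 (6.79) and ATF6B (3.79). The kinase sensors were lowest, EIF2AK3 at 1.78 and ERN1 at 0.975 FPKM. FPKM is per transcript length, so these levels can be set beside each other, although the exons of several members overlap those of neighbours. Whether the counting used strand is not given in the sources used here. In the annotation, antisense genes overlap 17.2% of the EIF2AK3 transcript, 9.7% of EDEM1 and 1.3% of ERN1. TBC1D31 overlaps 10.4% of DERL1 on the opposite strand. If the counting did not use strand, reads of these 4 genes and of their antisense partners may not have been told apart there. The levels of these 4 genes are therefore uncertain by an amount not measured here. A lncRNA on the same strand shares 11.0% of the ATF6B transcript.

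**Figure D1:**
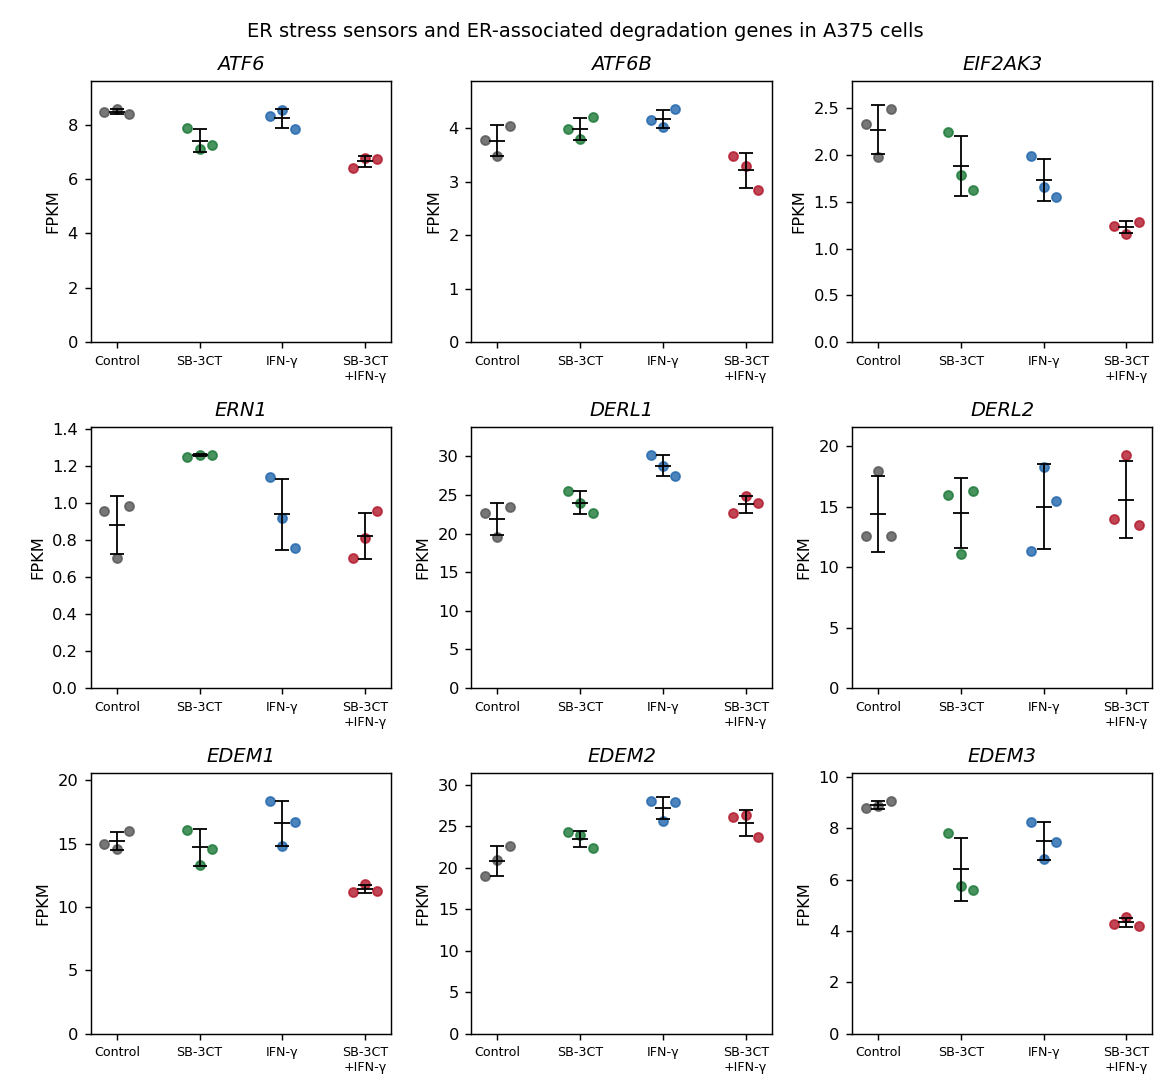
FPKM of each of the 9 genes (y axis, linear, from 0) in the 12 samples, by group (x axis); points are samples, with replicates 1 to 3 from left to right, and black bars are the mean ± SD (n = 3). EDEM3 sits at 8.79 to 9.08 in Control and at 4.20 to 4.55 in SB-3CT+IFN-γ, whereas DERL2 spreads from 11.1 to 19.3 with the groups mixed.

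On the deposited scale, adding SB-3CT to IFN-γ lowered most of the members. Against IFN-γ alone, 6 of the 9 members were called lower (EDEM3, EDEM1, ATF6B, EIF2AK3, ATF6 and DERL1) and 0 higher, where 31.5% of all genes in the table were called lower and 6.41% higher. The median change of the 9 was -0.27, beside -0.20 for all genes at 1 FPKM or more. With median ratio scaling 2 of the 9, EDEM3 and EDEM1, were still called lower and 0 higher, where 15.5% of all genes were called lower and 16.5% higher on that scale, and the median of the 9 was -0.05. The other 4 calls were lost. When a trend with transcript length was removed from each sample instead, 1 of the 9, EDEM3, was called lower and 0 higher, beside 9.05% and 8.87% of all genes. At an unadjusted p under 0.05 on the deposited scale, limma gave 0 higher as well, and the same 6 lower.

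SB-3CT alone changed 1 member. Against Control, EDEM3 was called lower and 0 members higher, where 6.87% of all genes were called lower and 5.37% higher, and the median change of the 9 was 0.01. On the median ratio scale 1 member, EDEM3, was lower and 1, ERN1, higher, beside 6.47% and 7.36% of all genes. At an unadjusted p under 0.05 on the deposited scale limma gave 2 higher, EDEM2 and ERN1, and 2 lower, EDEM3 and ATF6. IFN-γ alone raised DERL1 and EDEM2, the 2 members called higher against Control, and 0 were called lower, against 8.46% and 11.0% of all genes. At an unadjusted p under 0.05 limma gave 2 lower with IFN-γ, EDEM3 and EIF2AK3. With median ratio scaling 2 members, again DERL1 and EDEM2, were higher with IFN-γ and 1, EDEM3, lower, beside 12.1% and 10.2% of all genes. Both comparisons use the same Control samples.

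IFN-γ added to SB-3CT, compared with SB-3CT alone, gave 4 members called lower (EDEM1, EDEM3, EIF2AK3 and ERN1) and 0 higher, where 32.7% of all genes were called lower and 7.85% higher. On the median ratio scale 0 members were called lower and 2, EDEM2 and DERL1, higher, beside 10.2% and 13.7% of all genes. Limma gave 0 higher on the deposited scale at an unadjusted p under 0.05 too, and 5 lower, with ATF6B added to the 4. The change with SB-3CT was lower under IFN-γ than without it, by the test of that difference over all 12 samples, for 3 members (ATF6B, DERL1 and EDEM1) and higher for 0, beside 17.6% and 4.74% of all genes. The difference was called for 0 members in either direction after median ratio scaling, where it was lower for 5.23% of all genes and higher for 7.81%. On the deposited scale, at an unadjusted p under 0.05, 0 members were higher and 5 lower, with EDEM2 and ERN1 added to the 3.

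**Figure D2:**
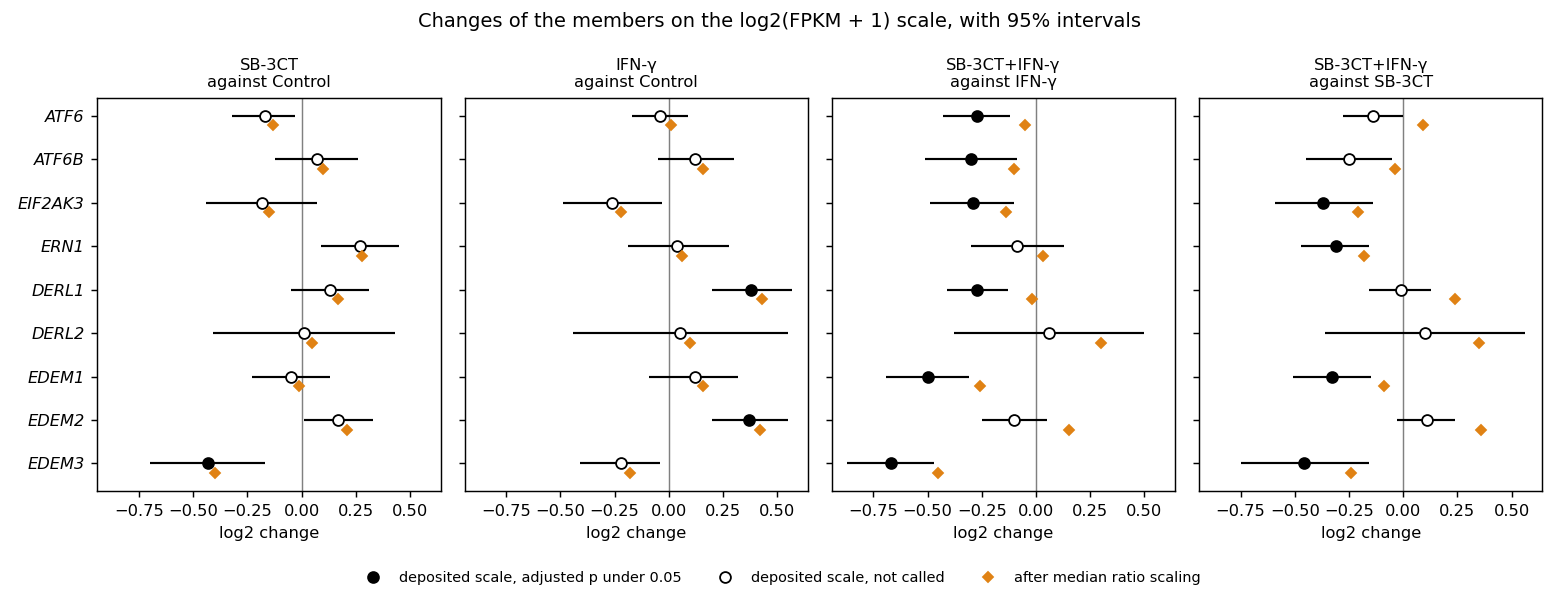
Change of each member on the log2(FPKM + 1) scale (x axis) in 4 comparisons (panels); circles with lines are limma estimates with 95% intervals on the deposited scale, filled where adjusted p is under 0.05, and orange diamonds are the estimates after median ratio scaling. In the 2 right-hand panels the diamonds lie to the right of the circles, and EDEM3 (-0.67 and -0.45 against IFN-γ) stays furthest to the left.

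ATF6, on chromosome 1 (hg19, chr1:161736088-161947364, + strand), encodes the membrane-bound factor that induces ER chaperone genes once cleaved. It was the steadiest member, with a pooled SD of 0.05 within groups on the log2 scale. It measured 8.46, 8.58 and 8.39 FPKM in Control, 7.89, 7.09 and 7.27 with SB-3CT, 8.31, 8.56 and 7.85 with IFN-γ, and 6.42, 6.78 and 6.75 with SB-3CT+IFN-γ. The SB-3CT+IFN-γ samples lay below all 9 others, and the SB-3CT samples lay below all Control samples. Against IFN-γ it fell by 0.27 (SE 0.07, adjusted p = 0.0161), but the difference was -0.05 after median ratio scaling (adjusted p = 0.654) and reversed to 0.20 with the trend of the values with transcript length taken out of each sample. Against Control the SB-3CT change of -0.17 (95% interval -0.32 to -0.03) was not called (adjusted p = 0.107), though leaving out SB-3CT replicate 1 gave an adjusted p of 0.0324.

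ATF6B (chr6:32083041-32096030, - strand) encodes the related factor, a weaker activator. Its levels were 3.78, 3.48 and 4.04 FPKM in Control, 3.98, 3.80 and 4.21 with SB-3CT, 4.16, 4.02 and 4.36 with IFN-γ, and 3.48, 3.30 and 2.85 with SB-3CT+IFN-γ. The combination stood below the other 9 samples, though its highest sample and the lowest Control sample were equal to 3 digits. The fall against IFN-γ was 0.30 (SE 0.09, adjusted p = 0.032), and -0.10 after median ratio scaling (adjusted p = 0.383). The call was also lost without IFN-γ replicate 1 or 3 or SB-3CT+IFN-γ replicate 2 or 3, where the adjusted p was 0.0745, 0.105, 0.0731 and 0.0948. The ratio of ATF6 to ATF6B within a sample, which no scaling of whole samples can change, was 2.26 ± 0.196 in Control, 1.86 ± 0.126 with SB-3CT, 1.97 ± 0.164 with IFN-γ and 2.09 ± 0.262 with both (SD, n = 3). Of the 4 comparisons, the Control and SB-3CT ratios alone did not overlap, and they did once the length trend was removed. With that trend removed, it was the ratios with SB-3CT+IFN-γ that no longer overlapped those with IFN-γ (a log2 difference of 0.41, from 0.08) or those with SB-3CT (0.31, from 0.16).

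EIF2AK3 (chr2:88856259-88991036, - strand) encodes PERK. Its values were 2.33, 1.98 and 2.49 FPKM in Control, 2.24, 1.78 and 1.62 with SB-3CT, 1.99, 1.66 and 1.55 with IFN-γ, and 1.24, 1.16 and 1.28 with SB-3CT+IFN-γ. The 3 samples given both agents lay below all others, while the other groups overlapped their neighbours in the order of levels. It fell by 0.29 against IFN-γ (SE 0.08, adjusted p = 0.0297) and by 0.37 against SB-3CT (SE 0.09, adjusted p = 0.023). On the median ratio scale these were -0.14 (adjusted p = 0.183) and -0.21 (adjusted p = 0.118). The first call was lost without IFN-γ replicate 1 (adjusted p = 0.0563) or without SB-3CT+IFN-γ replicate 1, 2 or 3 (0.0743, 0.0952 and 0.0687), and the second without SB-3CT+IFN-γ replicate 1, 2 or 3 (0.0639, 0.077 and 0.0609).

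ERN1 (chr17:62116440-62208179, - strand) encodes IRE1. Its 3 SB-3CT samples, 1.25, 1.26 and 1.26 FPKM, were above every other sample. Control samples measured 0.956, 0.702 and 0.981, IFN-γ samples 1.14, 0.92 and 0.757, and SB-3CT+IFN-γ samples 0.703, 0.81 and 0.954. The SB-3CT difference from Control was 0.27 (SE 0.08, 95% interval 0.09 to 0.45, adjusted p = 0.063), not called on the deposited scale, and 0.28 after median ratio scaling (adjusted p = 0.0429). Against SB-3CT alone, SB-3CT+IFN-γ was lower by -0.31 (SE 0.06, adjusted p = 0.0116), or -0.18 after median ratio scaling (adjusted p = 0.109). At about 1 FPKM this is a low-level gene, and with a pseudocount of 0.1 the difference of SB-3CT from Control had an adjusted p of 0.0969.

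The ratio between these 2 kinase sensors was lower in the 3 treated groups than in Control. Neither gene was called with SB-3CT or with IFN-γ against Control on the deposited scale. The ratio of EIF2AK3 to ERN1 was 2.44, 2.83 and 2.54 in Control and 1.79, 1.41 and 1.29 with SB-3CT, which is 57.2% of the Control ratio. It was 1.75, 1.81 and 2.05 with IFN-γ and 1.76, 1.43 and 1.35 with SB-3CT+IFN-γ. Every Control ratio lay above every ratio of the 3 treated groups, with an exact two-sided permutation p of 0.1 against SB-3CT and 0.1 against IFN-γ, the smallest that 3 samples against 3 allow. The IFN-γ and SB-3CT+IFN-γ ratios overlapped (p = 0.2, exact permutation test). Removing the length trend left the SB-3CT difference at -0.87 on the log2 scale, from -0.81, while the difference of SB-3CT+IFN-γ from IFN-γ went from -0.31 to -0.46 and those groups no longer overlapped. Within-sample ratios were chosen after the values had been seen.

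EDEM3 (chr1:184659371-184724041, - strand), which encodes a mannosidase-like protein that promotes disposal of misfolded glycoproteins, was the member called lower with SB-3CT both without and under IFN-γ. Control samples measured 8.79, 8.86 and 9.08 FPKM, SB-3CT samples 7.82, 5.77 and 5.61, IFN-γ samples 8.26, 6.79 and 7.47, and SB-3CT+IFN-γ samples 4.26, 4.55 and 4.20. Both single treatments lay wholly below Control, and the combination lay wholly below both. SB-3CT replicate 1 stood apart from its group at the level of the IFN-γ samples.

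Against IFN-γ, EDEM3 fell by 0.67 with SB-3CT+IFN-γ (SE 0.09, 95% interval -0.87 to -0.47, adjusted p = 0.00241), and its mean FPKM fell by 42.2%. The change was -0.45 after median ratio scaling (adjusted p = 0.00391), -0.36 after quantile normalization (adjusted p = 0.00761) and -0.23 with the length trend removed (adjusted p = 0.0361). It was called with each of the 6 samples left out in turn. Against Control, SB-3CT lowered EDEM3 by -0.43 (SE 0.11, adjusted p = 0.0495), just inside the threshold, and by -0.40 after median ratio scaling (adjusted p = 0.0404). That call was lost without Control replicate 1, 2 or 3 (adjusted p = 0.144, 0.15 and 0.164) and without SB-3CT replicate 2 or 3 (0.154 and 0.168), and was 0.00753 without SB-3CT replicate 1.

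The IFN-γ difference of EDEM3 from Control, -0.22 (95% interval -0.41 to -0.04), was not called on the deposited scale (adjusted p = 0.0865). It was called after median ratio scaling (-0.18, adjusted p = 0.0424) and without IFN-γ replicate 1 (adjusted p = 0.0348). Against SB-3CT, SB-3CT+IFN-γ lowered it by -0.46 (SE 0.12, adjusted p = 0.0265), or -0.24 after median ratio scaling (adjusted p = 0.153). Without SB-3CT+IFN-γ replicate 1, 2 or 3 this adjusted p was 0.0772, 0.0632 and 0.0861. The change with SB-3CT under IFN-γ minus that without was -0.23 (95% interval -0.56 to 0.09, adjusted p = 0.279), and -0.06 after median ratio scaling (adjusted p = 0.802).

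EDEM1 (chr3:5229331-5261643, + strand), a mannosidase-like protein that delivers misfolded glycoproteins for degradation and is a known target of the IRE1 branch, stood low in the combination alone. It measured 15.0, 14.6 and 16.0 FPKM in Control, 16.1, 13.3 and 14.6 with SB-3CT, 18.4, 14.8 and 16.7 with IFN-γ, and 11.2, 11.8 and 11.3 with SB-3CT+IFN-γ. The first 3 groups overlapped and the last lay below all of them. It fell by 0.50 against IFN-γ (SE 0.08, adjusted p = 0.00392), by 0.26 after median ratio scaling (adjusted p = 0.013) and by 0.04 with the length trend removed (adjusted p = 0.583). The EDEM1 transcript is 6113 bases long, and that of EDEM3 6837. Against SB-3CT it fell by 0.33 (SE 0.07, adjusted p = 0.0142), or 0.0515 without SB-3CT+IFN-γ replicate 3, and after median ratio scaling the difference was -0.09 (adjusted p = 0.331).

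EDEM2 (chr20:33703167-33735139, - strand), which starts the mannose trimming, was higher, not lower, with IFN-γ. Its values were 19.0, 20.9 and 22.6 FPKM in Control, 24.3, 23.9 and 22.4 with SB-3CT, 28.1, 25.7 and 27.9 with IFN-γ, and 26.1, 26.4 and 23.7 with SB-3CT+IFN-γ. All IFN-γ samples exceeded all Control and SB-3CT samples. It rose by 0.37 with IFN-γ (SE 0.07, adjusted p = 0.0169), or 0.42 after median ratio scaling (adjusted p = 0.00682), and the call was lost without Control replicate 2 (adjusted p = 0.0616), IFN-γ replicate 1 (0.0547) or IFN-γ replicate 3 (0.0682). Against IFN-γ, SB-3CT+IFN-γ differed by -0.10 (95% interval -0.25 to 0.05), which turned to 0.15 after median ratio scaling (adjusted p = 0.0648). Against SB-3CT the combination differed by 0.11 (adjusted p = 0.195), and by 0.36 after median ratio scaling (adjusted p = 0.0058).

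Within a sample, EDEM2 made up more of the summed EDEM FPKM in the treated groups than in Control. EDEM2 supplied 46.3% ± 1.66 of the summed EDEM FPKM in Control, 52.9% ± 2.67 with SB-3CT, 53.1% ± 1.56 with IFN-γ and 61.7% ± 1.25 with both (SD, n = 3). EDEM3 supplied 19.9% ± 0.785, 14.3% ± 1.69, 14.6% ± 0.435 and 10.5% ± 0.257 in the same order. EDEM1 supplied 33.9% ± 1.07, 32.9% ± 1.75 and 32.3% ± 1.14 in the first 3 groups and had 27.8% ± 1.03 in the last. These shares were not calculated with the length trend removed, and the ratios to EDEM2 given next change when it is.

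The ratio of EDEM3 to EDEM2 was 0.464, 0.424 and 0.401 in Control, 0.322, 0.241 and 0.25 with SB-3CT, 0.294, 0.264 and 0.267 with IFN-γ, and 0.163, 0.172 and 0.178 with SB-3CT+IFN-γ. The single treatments overlapped each other, lay below Control and lay above the combination. SB-3CT took the ratio to 62.7% of its level in Control and to 62.2% of its level under IFN-γ, a difference between the 2 changes of -0.01 on the log2 scale, or 0.28 with the length trend removed. Each of these steps, and those with IFN-γ, had an exact two-sided permutation p of 0.1, the smallest possible. With the length trend removed the ratios were 0.398 ± 0.0253, 0.277 ± 0.0233, 0.242 ± 0.00868 and 0.204 ± 0.00494 (SD, n = 3), and the SB-3CT step went from -0.67 to -0.53 on the log2 scale without IFN-γ and from -0.69 to -0.25 under it, in neither case with overlap between the groups. The EDEM2 transcript is 1884 bases long, shorter than those of the other EDEM genes, and the part of length in the ratio was not tested further. The ratio of EDEM1 to EDEM2 changed by -0.43 with SB-3CT+IFN-γ against IFN-γ and by -0.23 with SB-3CT against Control, without overlap, and these became -0.02 and -0.10, both with overlap, once the length trend was removed.

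The ratio of EDEM3 to EDEM1, a pair of similar transcript length, moved less with the length trend. It was 0.587 ± 0.0195 in Control, 0.434 ± 0.0503 with SB-3CT, 0.452 ± 0.0055 with IFN-γ and 0.379 ± 0.00793 with both (SD, n = 3). The SB-3CT step was -0.44 on the log2 scale, and -0.43 with the length trend removed. Under IFN-γ it was -0.25 and -0.22, again without overlap (exact permutation p = 0.1). The SB-3CT and SB-3CT+IFN-γ ratios overlapped.

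**Figure D3:**
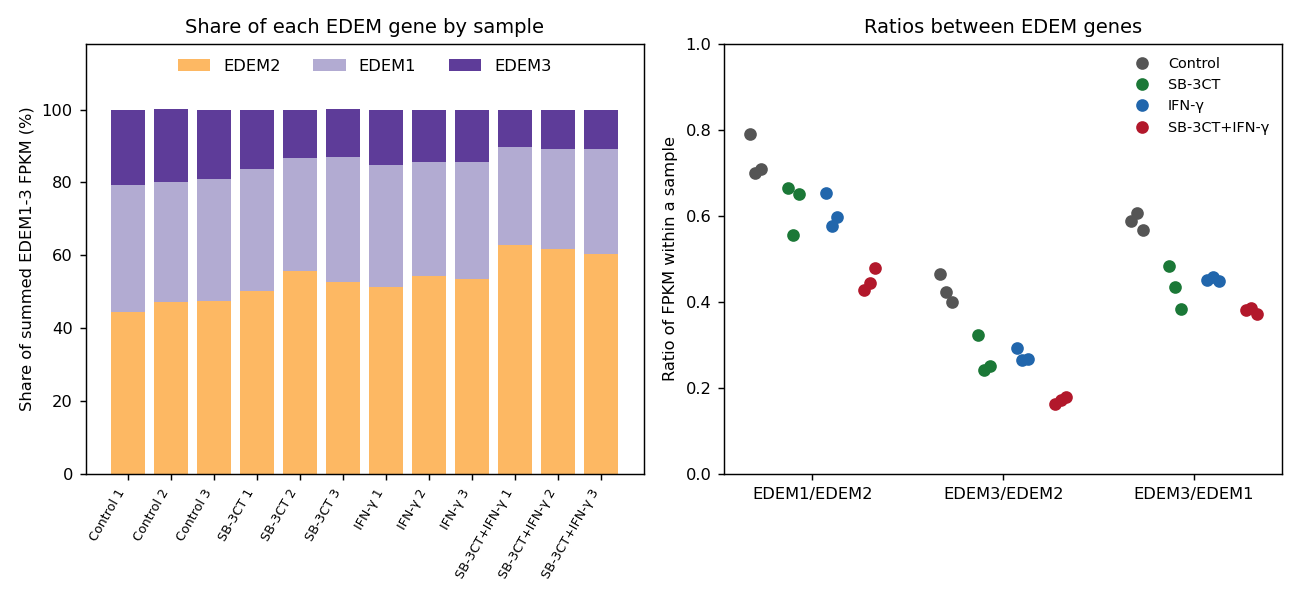
Left, share of the summed FPKM of EDEM1, EDEM2 and EDEM3 taken by each gene (y axis, %) in the 12 samples (x axis); right, ratios of FPKM between the EDEM genes within each sample (y axis), points coloured by group. The EDEM2 share is largest in the 3 SB-3CT+IFN-γ samples (mean 61.7%), and the EDEM3/EDEM2 ratio steps from 0.43 in Control to about 0.271 and 0.275 with the single treatments and 0.171 with both. Shares and ratios are shown without removal of the length trend.

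DERL1, on chromosome 8 (chr8:124025410-124054542, - strand), encodes a derlin, a rhomboid-like protein of the retrotranslocation complex, and it responded to IFN-γ. It measured 22.6, 19.6 and 23.5 FPKM in Control, 25.5, 24.0 and 22.6 with SB-3CT, 30.2, 28.8 and 27.4 with IFN-γ, and 22.6, 24.8 and 23.9 with SB-3CT+IFN-γ. The IFN-γ samples lay above all 9 others, which overlapped. It rose by 0.38 with IFN-γ (SE 0.08, adjusted p = 0.0182), or 0.43 after median ratio scaling (adjusted p = 0.00855), and the call was lost without Control replicate 1 (adjusted p = 0.0549), IFN-γ replicate 1 (0.0576) or IFN-γ replicate 2 (0.051). SB-3CT+IFN-γ was lower than IFN-γ by -0.27 (SE 0.06, adjusted p = 0.0113), which became -0.02 after median ratio scaling (adjusted p = 0.823) and 0.01 with the length trend removed. Against SB-3CT the combination differed by -0.01, a direction that turned to 0.24 after median ratio scaling (adjusted p = 0.0195).

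DERL2 (chr17:5374574-5390131, - strand), its partner in these complexes, differed more between replicates than between groups. It measured 12.6, 18.0 and 12.6 FPKM in Control, 16.0, 11.1 and 16.3 with SB-3CT, 11.3, 18.3 and 15.5 with IFN-γ, and 14.0, 19.3 and 13.5 with SB-3CT+IFN-γ. All 4 groups overlapped. Its pooled SD within groups of 0.29 on the log2 scale was higher than that of 98.5% of the 3177 genes at 1 FPKM or more. With IFN-γ against Control, DERL2 differed by 0.05. The 95% interval, -0.44 to 0.55, does not exclude a rise as large as that of EDEM2 in the same comparison. Against IFN-γ, SB-3CT+IFN-γ differed by 0.06 with a 95% interval of -0.38 to 0.50. The difference was 0.30 after median ratio scaling (adjusted p = 0.345), and against SB-3CT it was 0.10 and, with that scaling, 0.35 (adjusted p = 0.71 and 0.219).

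Proximal promoter sequence is shown for the EDEM genes, whose ratios moved, and for EIF2AK3, which holds the most CCAAT boxes of the windows searched. RefSeq promoter windows (300 bases, from 250 before to 50 after the start of transcription, GRCh38.p14) were found for 8 of the 9 genes, all but DERL1, and each matched hg19 at 1 place. The 250 upstream bases are printed 5′ to 3′ on the gene's strand, with CCAAT boxes on either strand (CCAAT or ATTGG) and the STAT-type GAS motif (TTC, any 3 bases, GAA) in capitals. The hg19 positions are chr3:5229142-5229391 for EDEM1, chr20:33735140-33735389 for EDEM2, chr1:184723993-184724242 for EDEM3 and chr2:88926983-88927232 for EIF2AK3, the first on the + strand and the others on the - strand. Each of these stretches ends next to the first base of the gene's canonical transcript, which for EIF2AK3 lies at 88926982, and other annotated transcripts carry the bounds given above for that gene further upstream.
EDEM1: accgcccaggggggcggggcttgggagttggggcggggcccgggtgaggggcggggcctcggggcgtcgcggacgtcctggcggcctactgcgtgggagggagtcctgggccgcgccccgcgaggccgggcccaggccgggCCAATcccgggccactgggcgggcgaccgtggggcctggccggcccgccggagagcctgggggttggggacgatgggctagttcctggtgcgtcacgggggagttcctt
EDEM2: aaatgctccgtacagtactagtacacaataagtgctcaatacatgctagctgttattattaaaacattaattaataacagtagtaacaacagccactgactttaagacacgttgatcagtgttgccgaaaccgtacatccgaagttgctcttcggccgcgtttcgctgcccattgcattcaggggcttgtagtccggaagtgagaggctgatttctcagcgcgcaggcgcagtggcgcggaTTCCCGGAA
EDEM3: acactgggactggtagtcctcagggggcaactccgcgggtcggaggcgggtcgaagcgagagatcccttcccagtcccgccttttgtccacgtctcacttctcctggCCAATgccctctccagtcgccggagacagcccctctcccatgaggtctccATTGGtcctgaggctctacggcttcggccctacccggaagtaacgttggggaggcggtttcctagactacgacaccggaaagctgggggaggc
EIF2AK3: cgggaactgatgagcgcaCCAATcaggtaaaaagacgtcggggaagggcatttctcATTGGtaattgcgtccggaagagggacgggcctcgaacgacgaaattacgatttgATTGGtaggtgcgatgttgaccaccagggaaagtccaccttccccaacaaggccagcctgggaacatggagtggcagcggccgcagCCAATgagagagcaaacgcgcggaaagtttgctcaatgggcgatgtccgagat

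The EDEM2 window held the GAS motif at -9 to -1 from the start. It was the 1 window of 8 to do so, beside 7.66% of 35116 RefSeq windows of the same length, and 1 of 8 is near that share. Whether the motif bears on the change with IFN-γ was not tested. EDEM2 and DERL1 were the members called higher with IFN-γ, and DERL1 was not among the 8. The EDEM2 window held no CCAAT box. EDEM1 held 1 CCAAT box (-109 to -105), EDEM3 held 2 (-143 to -139 and -93 to -89) and EIF2AK3 held 4, a number reached by 0.991% of all windows. EIF2AK3 was picked as the highest of the 8, so that share overstates how unusual its count is. In all, 6 of the 8 windows held a CCAAT box, beside 34.6% of all windows. The 8 windows ranged in GC content from 47.0% (ATF6) to 78.3% (EDEM1).

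Motifs named for the unfolded protein response were searched on both strands. The ER stress response element (CCAAT, any 9 bases, CCACG) was in 0 of 8 windows and in 0.0769% of all, and its second form (ATTGG, any 1 base, CCACG) in 0 of 8 and 0.0541%. The core of the unfolded protein response element, TGACGTGG, was in 0 of 8 and 0.729%, the cyclic AMP element TGACGTCA in 0 of 8 and 1.85%, and the core of the element bound by CHOP and ATF4 (TGATG, any 1 base, AAT) in 0 of 8 and 0.991%. The interferon-stimulated core (GAAA, any 2 bases, GAAA) was in 0 of 8 and 3.57%. The 2 ER stress elements contain a CCAAT box. These counts say only which letters stand in these windows.

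The genes that act around the members were taken from hand-written lists. The lists were written with earlier results of these data known, so their counts are descriptive. They are to be read beside the percentages of all genes given above for the same comparison and scale. Of 10 stress transcription factors and targets of the PERK branch, 6 were called higher with SB-3CT against Control and 0 lower (8 and 0 at an unadjusted p under 0.05), with a median change of 0.53. CHAC1, which breaks down glutathione, rose by 1.17 (SE 0.07), DDIT3, which encodes the pro-death factor CHOP, by 0.91 (SE 0.08) and ATF3 by 0.79 (SE 0.07). ATF4, the factor whose translation PERK signalling favours, rose by 0.35 (SE 0.05, adjusted p = 0.00932). EIF2AK3 itself was not called in that comparison (-0.18, 95% interval -0.44 to 0.07). PERK activity was not measured, and the name of the list does not assign these rises to PERK.

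With SB-3CT+IFN-γ against IFN-γ, 4 of the 10 were called higher and 0 lower (4 and 1 at an unadjusted p under 0.05), with a median change of 0.11. After median ratio scaling 7 were higher and 0 lower, with a median of 0.34. The change with SB-3CT was lower under IFN-γ than without it for 3 of the 10 and higher for 0 (median difference -0.32). With median ratio scaling that difference was lower for 1 and higher for 2 (median -0.12). DDIT3 rose by 1.22 (SE 0.05), from 19.3 ± 0.25 to 46.3 ± 2.40 FPKM (SD, n = 3), asparagine synthetase (ASNS) by 0.80 (SE 0.05), CHAC1 by 0.64 (SE 0.07) and ATF4 by 0.21 (SE 0.05). All 4 rises were larger after median ratio scaling, at 1.47, 1.05, 0.88 and 0.46. On the deposited scale the mean of EIF2AK3 was lowest with SB-3CT+IFN-γ, where that of DDIT3 was highest. The means of ATF6, ATF6B, EDEM1, EDEM3 and ERN1 were lowest there too. The EIF2AK3 difference from IFN-γ was -0.29, and -0.14 after median ratio scaling (limma adjusted p = 0.183).

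The other eIF2 kinases and the eIF2 and eIF2B subunits were called lower in 7 of 11 and higher in 0 with SB-3CT+IFN-γ against IFN-γ, and lower in 4 and higher in 2 after median ratio scaling. EIF2AK2 (PKR, the kinase activated by double-stranded RNA) fell by 0.93 (SE 0.09), EIF2AK1 by 0.86 (SE 0.18) and EIF2AK4, the amino acid sensor GCN2, by 0.65 (SE 0.07), and after median ratio scaling these were -0.69, -0.63 and -0.42, all called. EIF2AK3 had -0.29 and -0.14, and the differences between the kinases were not tested. With SB-3CT against Control limma called 0 of the 11 higher and 0 lower, and 1 higher and 2 lower at an unadjusted p under 0.05. Of 5 ER-anchored bZIP factors related to ATF6, 2 were lower against IFN-γ, CREB3L4 (-0.35) and CREB3L2 (-0.32), and 0 higher. On the median ratio scale 0 were lower and 1 was higher, CREB3 (0.30, limma adjusted p = 0.012), which is named after its values were seen and had 0.05 on the deposited scale. With SB-3CT against Control 0 of the 5 were called and 1 was higher at an unadjusted p under 0.05.

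Among 13 ER chaperones and folding enzymes, 2 were called higher and 8 lower with SB-3CT+IFN-γ against IFN-γ, and 3 higher and 4 lower after median ratio scaling. DNAJB9, a co-chaperone induced through IRE1, rose by 0.38 (SE 0.07) and CRELD2 by 0.21 (SE 0.05), and both were called after median ratio scaling (0.60 and 0.45). DNAJC3, an inhibitor of PERK, fell by 0.62 (SE 0.07), the oxidase ERO1B by 0.58 (SE 0.07) and calnexin (CANX) by 0.50 (SE 0.07), all called after median ratio scaling as well (-0.40, -0.35 and -0.25). Calreticulin (CALR) fell by 0.37 (SE 0.07) on the deposited scale, and its difference was -0.11 after median ratio scaling (adjusted p = 0.265). With SB-3CT against Control, CRELD2 was higher (0.45) and ERO1B lower (-0.59), and the other 11 were not called. Those not called included DNAJB9 at 0.02, DNAJC3 at -0.32, CALR at 0.08 and CANX at -0.11.

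Of 15 other genes of the degradation machinery, 0 were called higher and 5 lower against IFN-γ, with a median of -0.15, and 2 higher and 3 lower after median ratio scaling. The lipid raft protein ERLIN1 fell by 0.57 (SE 0.07), and the p97 adaptors FAF1 and FAF2 by 0.51 (SE 0.07) and 0.49 (SE 0.06), and all 3 were still called after that scaling (-0.33, -0.27 and -0.24). SB-3CT against Control gave 3 higher and 0 lower, among them AUP1 (0.32), which recruits a ubiquitin-conjugating enzyme to the pathway, and BCAP31 (0.27). With SB-3CT alone 0 of these 15 were lower at an unadjusted p under 0.05 either, while EDEM3 was called lower.

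The N-glycan assembly genes (21) and the subunits of the ER membrane insertase EMC (9) had calls in both directions on the deposited scale. Against IFN-γ, 5 N-glycan genes were higher and 6 lower, from DAD1 (0.67) to ALG12 (-0.33), and 3 EMC subunits were higher and 2 lower, from EMC3 (0.44) to EMC2 (-0.34). Median ratio scaling gave 10 N-glycan genes higher and 0 lower, and 6 EMC subunits higher and 0 lower, with medians of 0.17 and 0.39, beside 16.5% of all genes higher and 15.5% lower. With the length trend removed the counts were 4 and 1, and 2 and 0. With SB-3CT against Control on the deposited scale they were 1 and 2, and 1 and 0.

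With IFN-γ against Control, the numbers called higher and lower were 4 and 0 of the PERK-branch list, 2 and 3 of the eIF2 list, 0 and 1 of the bZIP factors, 3 and 2 of the chaperones, 2 and 1 of the other degradation genes, 0 and 3 of the N-glycan genes and 0 and 1 of EMC. For SB-3CT+IFN-γ against SB-3CT they were, in the same order, 4 and 2, 1 and 7, 0 and 1, 2 and 6, 0 and 9, 2 and 6, and 1 and 2. In that last comparison median ratio scaling gave, again in that order, 5 and 0, 1 and 4, 0 and 1, 5 and 0, 1 and 1, 6 and 0, and 3 and 1, beside 13.7% of all genes higher and 10.2% lower.

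**Figure D4:**
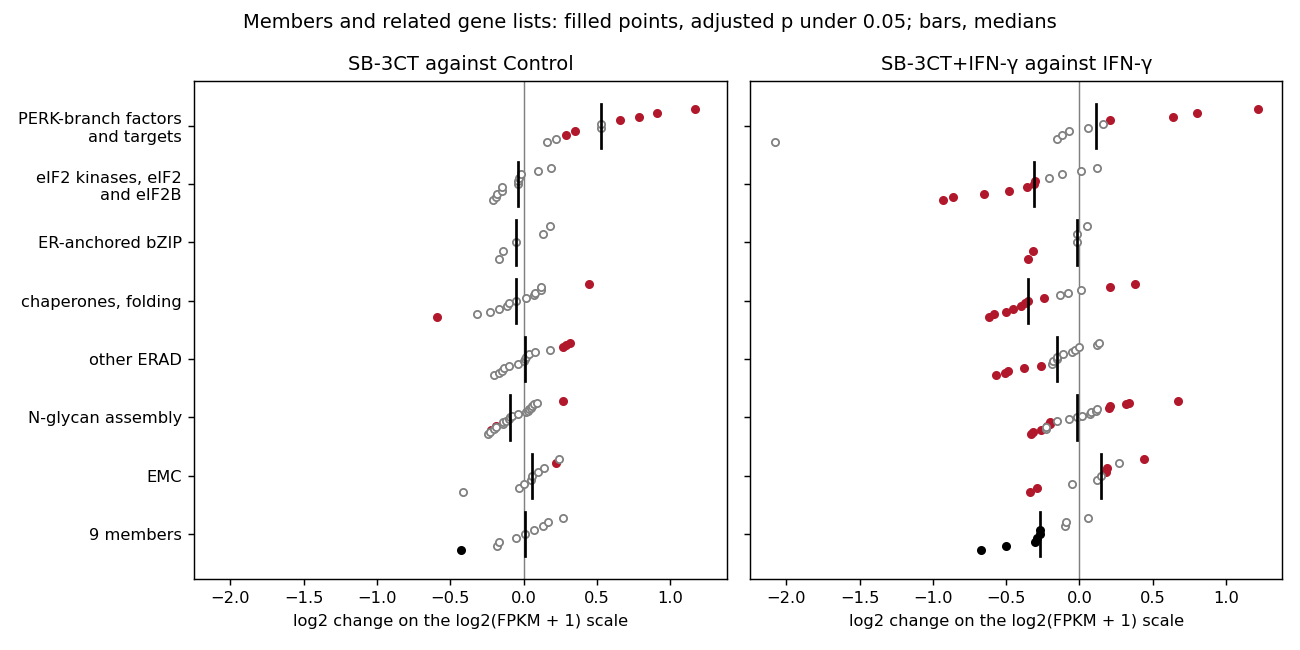
Change of each gene on the log2(FPKM + 1) scale (x axis) for the 7 related lists and the 9 members (rows), with SB-3CT against Control (left) and SB-3CT+IFN-γ against IFN-γ (right), on the deposited scale; filled points have adjusted p under 0.05 and bars are medians. The PERK-branch list has a median of 0.53 on the left and 0.11 on the right. On the right the 9 members have a median of -0.27 beside -0.31 for the eIF2 list and -0.35 for the chaperones.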

How the data were processed

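The deposited table holds values that the authors made by aligning reads to hg19 and calculating FPKM. The submitters' processing notes name HISAT2 2.0.5 and StringTie 1.3.3. The deposited values are on a log2 scale, read as log2(FPKM + 1) (highest value 12.16), and were used as such, with FPKM taken back from them. The 4918 symbols ran from A1BG to FAM46B, and others were not analysed here. Columns were matched to samples by name, with 0 columns of values per sample left unused.

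Each pair of groups was fitted on its own 3 + 3 samples by limma 3.58.1 (lmFit, then eBayes with trend) under R 4.3.3, and the difference between changes was fitted over all 12 samples. p-values were Benjamini-Hochberg adjusted over all 4918 genes and called under 0.05. The fits were tested on simulated data. Transcript lengths came from GENCODE release 44 on hg19 and covered 98.6% of symbols (4428 matched directly, 420 through an older symbol), and promoters came from RefSeq. Relative depth came from the steps between low FPKM values, and 1 set of depths fitted 66 of 66 sample pairs to within 0.05 (log2).

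The members and lists were chosen with earlier results of these data known. All 9 members were named, with at most 3 rises and 3 falls per list in SB-3CT against Control and SB-3CT+IFN-γ against IFN-γ (adjusted p under 0.05, mean FPKM of at least 1), and DDIT3, ATF4, DNAJB9, DNAJC3, CALR and CANX in any case. A gene that this rule names is not reported here. Alternatives were a pseudocount of 0.1, a mean of at least 1 FPKM, median ratio scaling, quantile normalization, removal of each sample's loess trend with transcript length, all 12 samples in one fit, a replicate block, leaving out each sample, robust eBayes, eBayes without trend, and a call at over 1.5-fold with unadjusted p under 0.05. Length-trend removal for ratios between members was added after seeing the data.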

Additional observations from a re-analysis of the deposited data

Results flagged for a closer look

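The change with SB-3CT differed between cells with and without IFN-γ for 3 members, by limma's test of the difference over all 12 samples. For ATF6B the change under IFN-γ minus that without was -0.37 (SE 0.11, adjusted p = 0.0331). For DERL1 it was -0.40 (SE 0.10, adjusted p = 0.018), and for EDEM1 -0.45 (SE 0.11, adjusted p = 0.0192). After median ratio scaling they were -0.20 (adjusted p = 0.229), -0.19 (0.201) and -0.25 (0.0654), and the median difference over genes at 1 FPKM or more went from -0.19 to -0.02. The EDEM1 call was lost without Control replicate 2 (adjusted p = 0.0504). That of ATF6B was lost without Control replicate 1 (0.0606) or 2 (0.0844), SB-3CT replicate 1 (0.0564) or 3 (0.0722), IFN-γ replicate 1 (0.0617) or 3 (0.0785), or SB-3CT+IFN-γ replicate 2 (0.053) or 3 (0.0768). The DERL1 call held with each of the 12 samples left out.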

How the results depend on the processing

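Counts of members depended on the scale chosen between samples. Against IFN-γ, the 6 members lower with SB-3CT+IFN-γ became 2 after median ratio scaling or quantile normalization and 1 with the length trend removed. The 1 member lower with SB-3CT against Control was joined by 1 higher under each of these 3, and for IFN-γ against Control the 0 lower became 1, 1 and 2. For SB-3CT+IFN-γ against SB-3CT, the 4 lower became 0 under each, and the 0 higher became 2, 1 and 2. The 3 members with a difference of changes became 0 under each. Why these scales differ was not tested. The counts in this section are not set beside shares of all genes, so they compare settings only.

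With a replicate block the members lower were 3 against IFN-γ, 0 with SB-3CT against Control and 1 against SB-3CT, while no other count of members moved by over 1.5 times. Same-numbered samples did not deviate together (correlations of deviations from -0.39 to 0.17), so the numbers were not taken to pair samples. eBayes without trend gave 1 higher and 0 lower with SB-3CT against Control. A call at over 1.5-fold and unadjusted p under 0.05 gave 1 lower against IFN-γ, 0 lower with SB-3CT against Control, 0 higher with IFN-γ against Control, 0 lower against SB-3CT and 0 differences of changes.

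With 1 sample left out, members lower with SB-3CT against Control ran from 0 to 2, those higher with IFN-γ against Control from 0 to 2, those lower with IFN-γ from 0 to 1, those lower against SB-3CT from 1 to 4, and differences of changes from 1 to 4.

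Of 715 alternatives over 45 member changes, 574 kept direction and side of the threshold, 74 lost a call, 23 gained one and 44 changed direction. The 574 include changes that were not called and stayed so, as 16 of the 45 were called in the main fit. In 7 of the 45 no alternative changed the direction or the side of the threshold. Directions that changed were as follows, on the log2 scale. After median ratio scaling, against IFN-γ, EDEM2 was 0.15 and ERN1 0.03, against SB-3CT ATF6 was 0.09 and DERL1 0.24, with IFN-γ against Control ATF6 was 0.01, and the difference of changes was 0.09 for ATF6 and 0.01 for EIF2AK3. After quantile normalization, against IFN-γ, ATF6 was 0.01, EDEM2 0.03 and ERN1 0.08, against SB-3CT ATF6 was 0.05 and DERL1 0.10, and the difference was 0.13 for ATF6, 0.01 for EDEM3 and 0.01 for EIF2AK3. With the length trend removed, against IFN-γ, ATF6 was 0.20, DERL1 0.01 and ERN1 0.17, with SB-3CT against Control EDEM1 was 0.06, against SB-3CT ATF6 was 0.15 and DERL1 0.19, and the difference was 0.25 for ATF6, 0.08 for EDEM3 and 0.07 for EIF2AK3. With 1 sample left out, DERL2 reached -0.12 and -0.10 against IFN-γ, ran from -0.08 to 0.18 with SB-3CT and from -0.09 to 0.23 with IFN-γ against Control, and reached -0.06 and -0.05 against SB-3CT and -0.11, -0.12, -0.13 and -0.10 for the difference. In the same way EDEM1 reached 0.01 with SB-3CT against Control, ERN1 ran from -0.03 to 0.11 with IFN-γ against Control, and DERL1 reached 0.03 and 0.02 against SB-3CT.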
